A study of Mus musculus with 12 samples.

Results

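The genes described here encode 10 receptors through which macrophages bind and take up modified lipoproteins, microbes and dying cells: Olr1, Msr1, Marco, Colec12, Cd36, Scarb1, Mertk, Axl, Lrp1 and Stab2. They were chosen by name, with earlier results of these data known, and are 10 of 19938 genes measured. Each had 1 probe set with this gene symbol, so no choice between probe sets was needed. Expression was measured on 12 microarrays of macrophages sorted from mouse skin, 3 for each of 4 groups: MHC-II-positive melanophages, MHC-II-negative melanophages, MHC-II-positive macrophages and MHC-II-negative macrophages. Melanophages are macrophages that hold melanin pigment taken up from other cells. All mice were untreated B6 wild-type animals kept under SPF (specific pathogen free) conditions, and the gate of all 4 groups kept cells with CD11b and CD64 and without CD24, CCR2 and Ly6C. Side scatter (SSC-A), a measure of cell granularity, is given as high for melanophages. For macrophages the labels disagree, with a high side scatter in the titles and a low one in the phenotype, so it was not used here.

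Scavenger receptors recognise negatively charged or oxidised ligands such as oxidised low-density lipoprotein (LDL), bacterial surfaces and cell debris, and deliver them to lysosomes. Receptors for apoptotic cells bind phosphatidylserine on the dying cell, either directly or through bridging proteins such as Gas6 and protein S, and start engulfment without inflammation. In skin, resident macrophages clear dead cells and particles, and those that take up melanin become the pigment-holding melanophages.

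Values are log2 expression on the scale of the deposited table, and errors of group means are SD over 3 arrays. Levels of different genes cannot be set against each other, because each probe set binds with its own strength. A floor was set at a log2 value of 3.11, the 95th percentile of 1205 probe sets of olfactory and vomeronasal receptors. Differences against a group near this floor may understate the true fold. Array medians lay between 2.97 and 3.08, and arrays of the same group correlated with each other at a mean r of 0.972 to 0.988 per array. Replicate 1 of MHC-II-negative macrophages and replicate 3 of MHC-II-positive macrophages stood farthest from their mates, with an SD of the difference of 0.406 and 0.356. Among genes of the sort gate, H2-Aa, H2-Ab1, H2-Eb1 and Ccr2 were called higher in MHC-II-positive cells; although the gate excluded CCR2, Ccr2 averaged 6.75 ± 0.39 in MHC-II-positive melanophages, against 3.40 ± 0.31 in their MHC-II-negative counterparts, and 7.11 ± 0.53 in MHC-II-positive macrophages, against 3.99 ± 0.27. Between melanophages and macrophages, averaged over MHC-II class, all 7 measured gate genes were lower in melanophages (log2 differences -1.28 to -0.37, median -0.65). Of these 0 were called, against 0.12% of all genes, and 6 had an unadjusted p under 0.05 in limma, against 7.52%. All 7 measured macrophage markers were above the floor in every group.

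**Figure D1:**
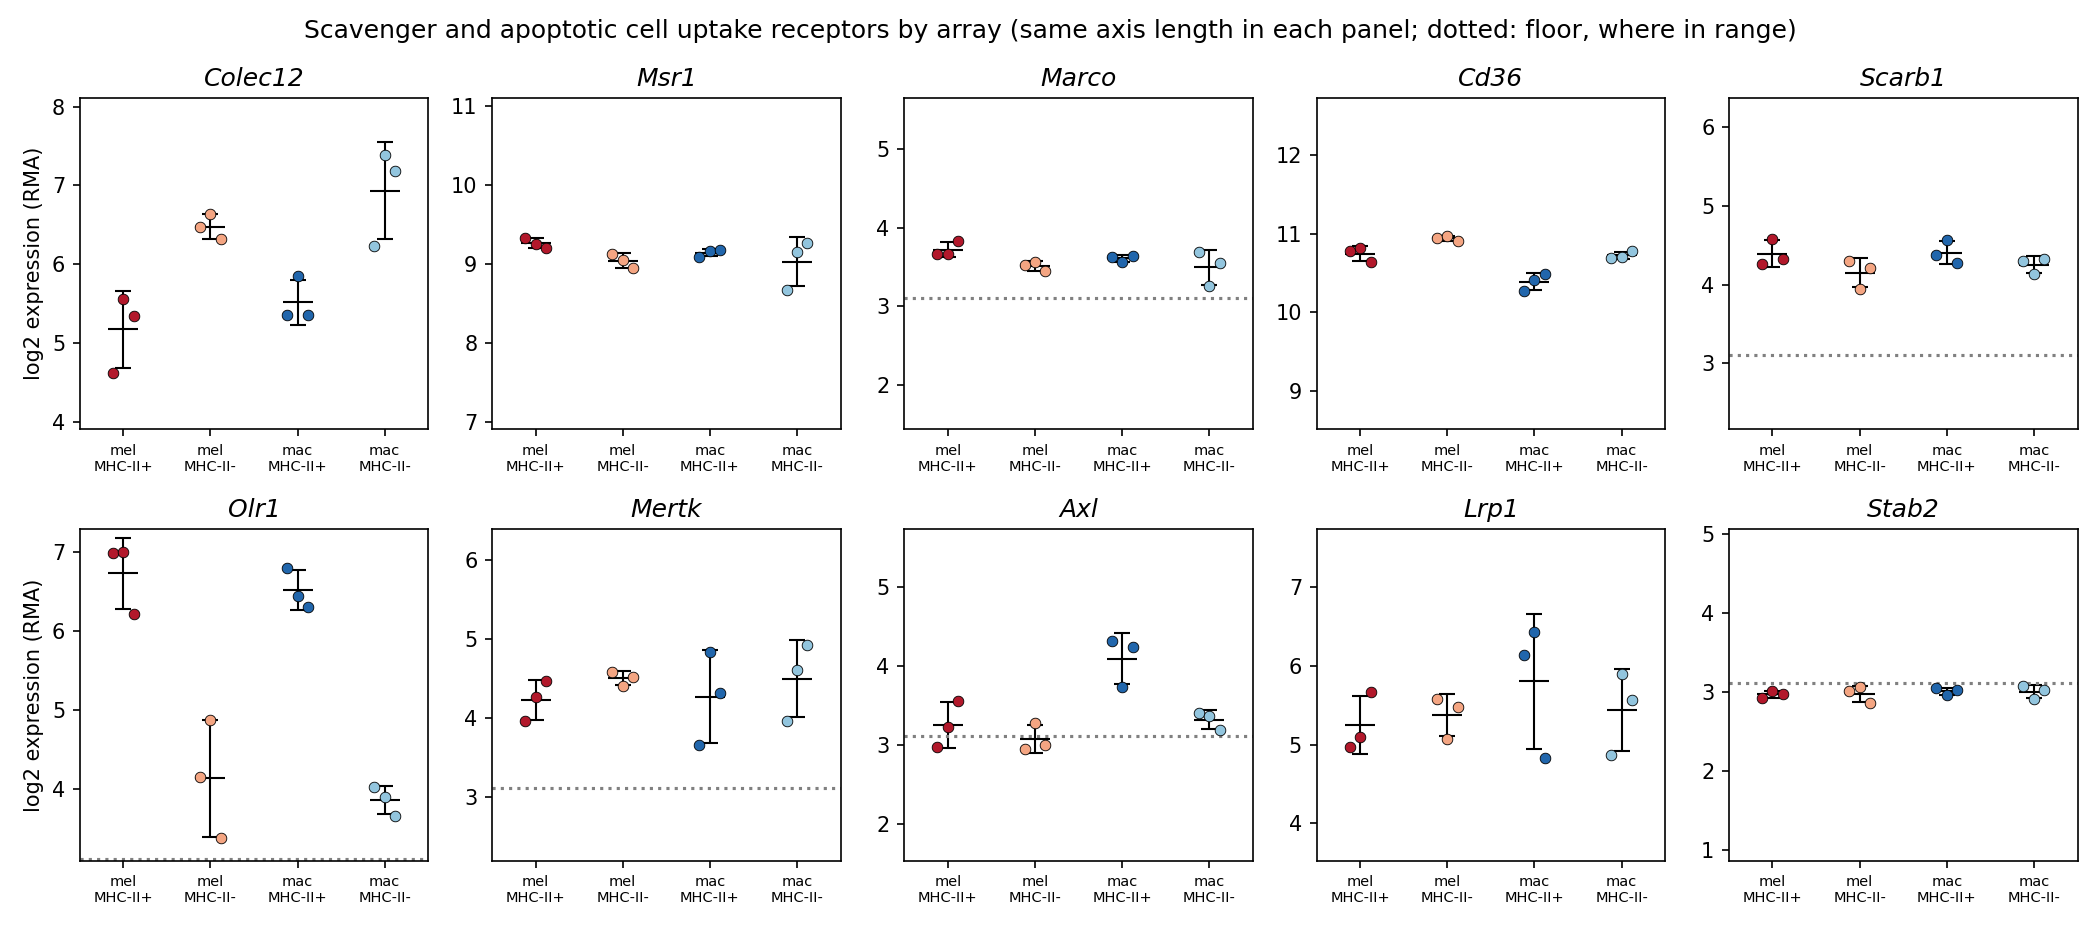
Log2 expression of each receptor on every array (points), with the group mean and SD (bars, 3 arrays a group); mel is melanophages, mac is macrophages, each panel spans the same number of log2 units, and the dotted line is the floor of 3.11 where it falls in range. Olr1 is high and Colec12 low in both MHC-II-positive groups, while all Stab2 values lie below the floor.

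Of the 10 receptors, MHC-II-positive cells had a higher level of Olr1 and a lower level of Colec12 than MHC-II-negative cells of both kinds on average, and 8 were not called. Calls rest on limma's p, adjusted over all genes by the Benjamini-Hochberg method, with a threshold of 0.05. Of all genes, 0.632% were called higher and 0.13% lower in this comparison (0.762% in all). The median difference of the 10 receptors was 0.14 on the log2 scale, against -0.02 for all genes. At an unadjusted p under 0.05 limma found 5 of the 10, against 9.23% of all genes. Between melanophages and macrophages, averaged over MHC-II class, 0 of the 10 were called by limma, where 0.12% of all genes were (0.0552% higher and 0.0652% lower). There 2 of the 10, Cd36 and Axl, had an unadjusted p under 0.05, against 7.52% of all genes.

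The comparisons were also made within each MHC-II class and each cell kind. Between melanophages and macrophages limma called 0 of the 10 in the MHC-II-negative class, against 0.00502% of all genes, which is 1 gene and lower in melanophages. It called 0 of the 10 in the MHC-II-positive class, against 0.015%, which is 3 genes, all lower. At an unadjusted p under 0.05 these counts were 1 (5.65% of all genes) and 2 (6.3%). Between the MHC-II classes 1 of the 10, Olr1, was called higher and 0 lower in melanophages, where 0.201% of all genes were called higher and 0.01% lower. The same held in macrophages, where 0.311% were called higher and 0.0301% lower. At an unadjusted p under 0.05 these were 3 of the 10 in melanophages (5.7% of all genes) and 4 in macrophages (7.83%).

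**Figure D2:**
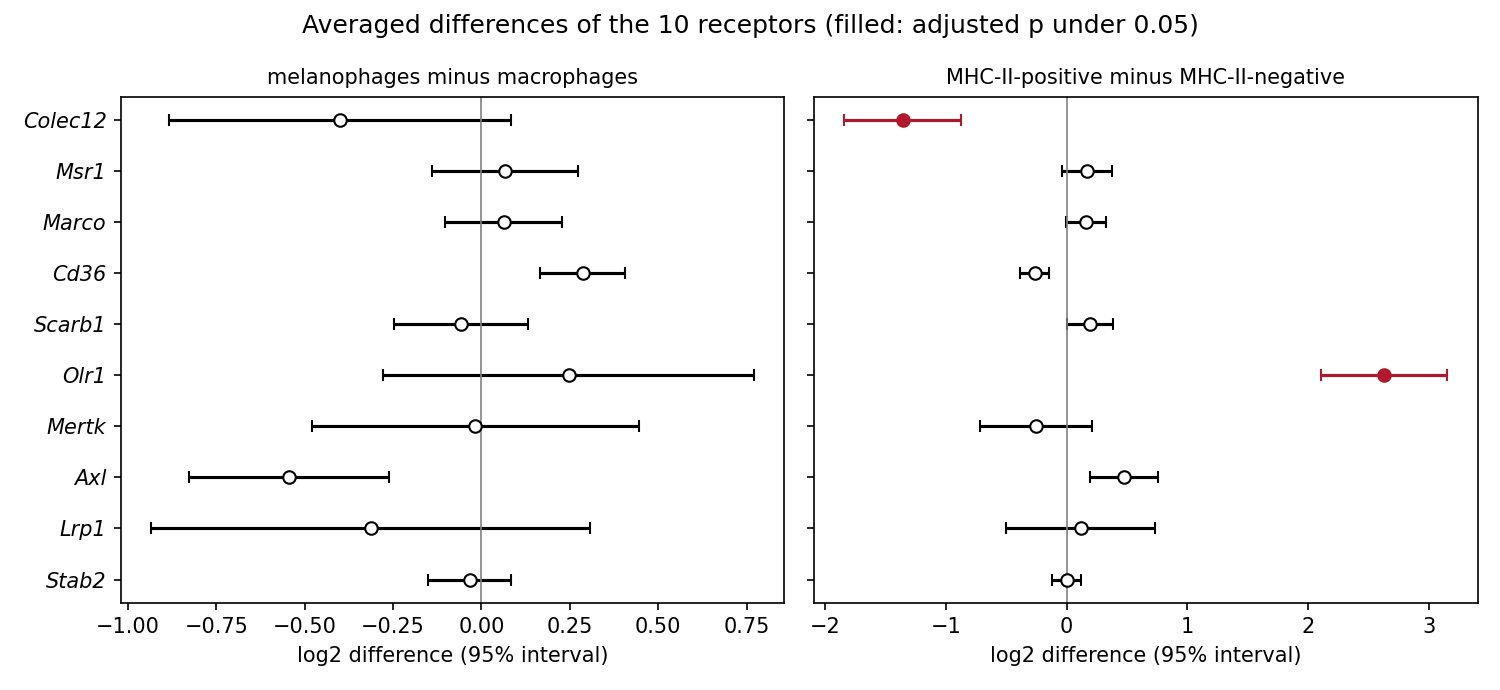
Log2 differences (points) with 95% intervals of the limma fit (bars) for melanophages minus macrophages (left, averaged over MHC-II class) and the MHC-II classes, positive minus negative (right, averaged over cell kind); filled points have an adjusted p under 0.05, and the panels have different horizontal scales. Filled points are Olr1 at 2.63 and Colec12 at -1.36, both on the right.

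Olr1 encodes LOX-1, a lectin-like receptor that binds oxidised LDL, bacteria and apoptotic cells. Its log2 values were 6.98, 7.0 and 6.21 in MHC-II-positive melanophages, compared with 4.16, 4.87 and 3.38 in MHC-II-negative melanophages. In macrophages they were 6.80, 6.45 and 6.30 in MHC-II-positive cells, against 4.02, 3.89 and 3.66 in MHC-II-negative cells. Every MHC-II-positive array was above every MHC-II-negative array, and the cell kinds overlapped within each MHC-II class. Such a separation without overlap in both cell kinds, with the MHC-II-positive arrays above, was seen for 1.11% of all genes. Averaged over cell kind, Olr1 was 6.19-fold higher in MHC-II-positive cells (log2 difference 2.63 ± 0.24 SE, 95% interval 2.1 to 3.15, limma adjusted p = 0.000372). The difference was 6.06-fold within melanophages (2.60 ± 0.33 SE, adjusted p = 0.0113) and 6.32-fold within macrophages (2.66 ± 0.33 SE, adjusted p = 0.00605). Within melanophages the call was lost without replicate 2 of the MHC-II-positive melanophages (adjusted p = 0.0653) and when only the melanophage arrays entered the fit (adjusted p = 0.124). Over all genes 0.211% were called in melanophages and 0.341% in macrophages. The differences within the cell kinds were themselves -0.06 ± 0.47 SE apart (95% interval -1.11 to 0.99). Between melanophages and macrophages the averaged difference of Olr1 was 0.25 ± 0.24 SE (95% interval -0.28 to 0.77, adjusted p = 0.865).

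Olr1 lies on chromosome 6 among genes for C-type lectins and killer lectin-like receptors, and Clec7a is the next measured gene on one side. Clec7a encodes dectin-1, a receptor for fungal beta-glucan. Promoters of both genes are shown because both were called in the same direction; they are the RefSeq sequences from 250 bases before to 50 bases after the annotated start, on the minus strand of GRCm38.p6, at chr6:129507116-129507415 for Olr1 and chr6:129472730-129473029 for the first of the Clec7a starts. In capitals are a match to the AP-1 motif TGANTCA (Olr1) and matches to GAGGAA, the core of a PU.1 site, on either strand (both genes).
Olr1: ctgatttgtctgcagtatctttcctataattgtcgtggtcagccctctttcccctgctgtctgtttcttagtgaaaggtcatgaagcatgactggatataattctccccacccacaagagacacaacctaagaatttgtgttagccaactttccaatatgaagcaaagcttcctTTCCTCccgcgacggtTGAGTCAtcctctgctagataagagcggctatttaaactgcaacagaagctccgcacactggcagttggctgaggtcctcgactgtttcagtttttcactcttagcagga
Clec7a: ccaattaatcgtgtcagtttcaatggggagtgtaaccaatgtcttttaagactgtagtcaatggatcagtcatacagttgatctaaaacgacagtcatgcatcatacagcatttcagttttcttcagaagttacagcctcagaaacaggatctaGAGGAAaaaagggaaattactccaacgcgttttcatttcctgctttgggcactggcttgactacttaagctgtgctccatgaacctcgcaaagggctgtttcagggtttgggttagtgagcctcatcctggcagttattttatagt
In the Olr1 promoter the AP-1 match began 60 bases and the GAGGAA match (read as TTCCTC) 76 bases before the start, and they did not overlap. The Clec7a match began 96 bases before the start. Promoters of 7 of the 10 receptors were in the table, without those of Colec12, Msr1 and Scarb1. Of those 7, TGANTCA was found in 1 (Olr1) and GAGGAA in 3 (Olr1, Marco and Axl), where 7.81% and 28.3% of 32851 promoters of this length held them on either strand. A match is a description of these letters and no measure of binding.

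Clec7a was 6.61, 6.28 and 6.40 in MHC-II-positive melanophages, compared with 4.85, 4.04 and 3.46 in MHC-II-negative melanophages. In macrophages it was 6.41, 6.52 and 7.55 in MHC-II-positive cells, against 4.53, 4.97 and 4.71 in MHC-II-negative cells. As for Olr1, no MHC-II-positive array overlapped a MHC-II-negative one. Its averaged difference was 2.20 ± 0.25 SE (4.6-fold, adjusted p = 0.00212). The neighbours of Olr1 were looked at after its values were seen. Of the 6 measured genes on each side, 4 of 12 were called higher in MHC-II-positive cells and 0 lower, against 0.632% and 0.13% of all genes. A mean over all arrays at or below the floor was seen for 8 of the 12. Beside Clec7a the called neighbours were Klrd1 (3.84 ± 0.20 SE, 14.3-fold, adjusted p = 1.12e-05), which encodes the CD94 chain of natural killer receptors, Clec12a (1.19 ± 0.21 SE, adjusted p = 0.033), an inhibitory lectin of myeloid cells, and Klrk1 (0.76 ± 0.13 SE, adjusted p = 0.0267), the activating receptor NKG2D, whose mean of 2.98 was below the floor. Clec7a and Klrd1 kept their calls whichever 1 of the 12 arrays was left out. Clec12a kept its call without replicate 1 of the MHC-II-negative melanophages, replicate 1 of the MHC-II-negative macrophages or replicate 3 of the MHC-II-positive melanophages, and lost it without any 1 of the other 9 arrays (adjusted p 0.058 to 0.0966). Klrk1 lost its call without replicate 2 or 3 of either melanophage group or of the MHC-II-negative macrophages (6 arrays, adjusted p 0.0678 to 0.0834).

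**Figure D3:**
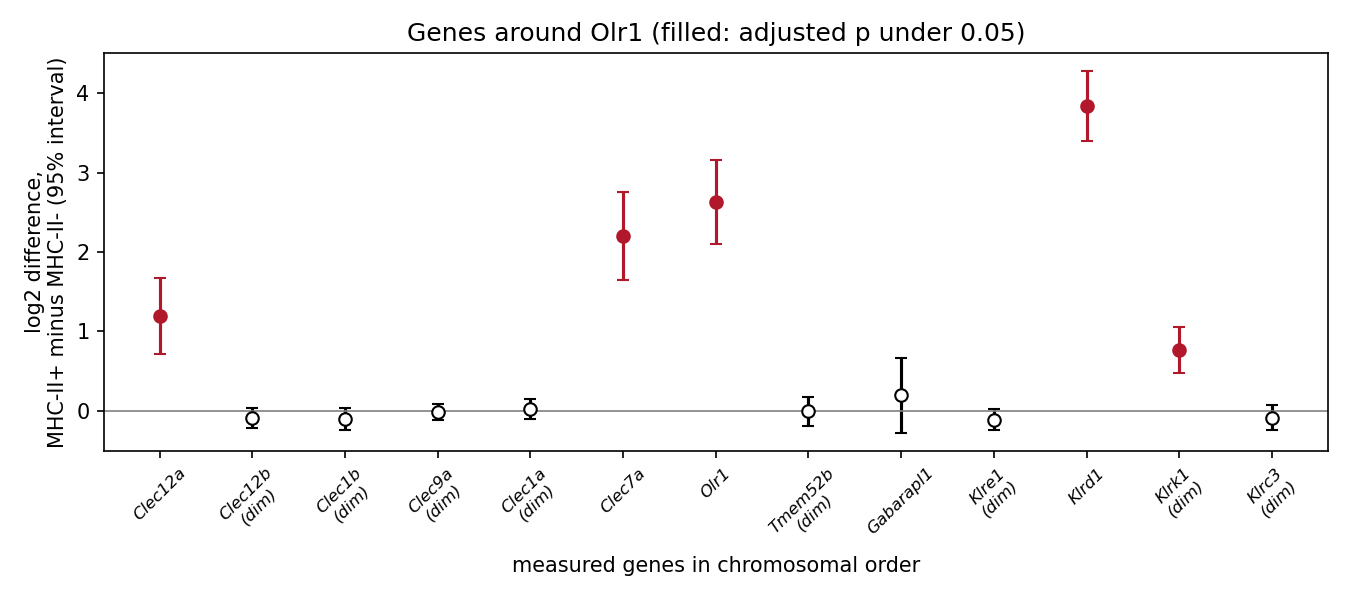
Log2 difference between the MHC-II classes (positive minus negative, both cell kinds averaged) for Olr1 and the 6 measured genes on each side in chromosomal order (points, with 95% intervals of the limma fit); filled points have an adjusted p under 0.05, and genes marked dim have a mean over the 12 arrays at or below the floor. Olr1 at 2.63 and Clec7a at 2.20 stand next to each other, while Klrd1 at 3.84 is 4 genes away on the other side.

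Markers of other cells moved with the MHC-II classes, so their values stand beside the result on Olr1. Of 8 dendritic cell markers, 3 (Ccr7, Cd207 and Itgax) were called higher in MHC-II-positive cells, against 0.632% of all genes. At an unadjusted p under 0.05 limma found 4 of the 8, against 9.23%. The log2 of the summed level of all 8 was 6.78 to 7.75 in MHC-II-positive melanophages, against 6.19 to 6.33 in MHC-II-negative melanophages, and 7.53 to 8.03 in MHC-II-positive macrophages, against 6.15 to 6.48 in MHC-II-negative macrophages. Xcr1 and Clec9a, which define conventional dendritic cells of type 1, were below the floor in all 4 groups. Zbtb46, Flt3, Ccr7 and Itgax were above it in all 4 groups. Dpp4 was above it only in MHC-II-positive melanophages, and Cd207 was below it only in MHC-II-negative melanophages. Of 4 measured monocyte markers, Ccr2 was called higher (3.23 ± 0.20 SE) and the other 3 were not. Vcan and Plac8 were below the floor in every group, and Chil3 was above it in every group. Of the 4 differences 3 were above 0, with a median of 0.81. In limma 2 had an unadjusted p under 0.05, against 9.23% of all genes. The log2 of the sum of all 4 was 6.91 to 7.66 in MHC-II-positive melanophages, against 4.91 to 5.17 in MHC-II-negative melanophages. In macrophages it was 6.94 to 8.17 in MHC-II-positive cells, against 5.04 to 5.57 in MHC-II-negative cells. Among 4 measured T cell markers Cd2 was called higher (1.37 ± 0.13 SE) and the other 3 were not. Cd3d and Cd3g were below the floor in every group, while Cd3e was above it in every group. The log2 of the sum of these 4 was 5.68 to 5.87 in MHC-II-positive melanophages, against 4.80 to 4.96 in MHC-II-negative melanophages. In macrophages this sum was 5.66 to 5.83 in MHC-II-positive cells, against 5.16 to 5.36 in MHC-II-negative cells. The part of such cells in the Olr1 difference was not tested. In bulk samples, fewer cells of a type and less RNA per cell cannot be told apart.

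Among class A scavenger receptors, which carry a collagen-like stalk, Colec12 (collectin 12) binds oxidised LDL and microbial sugars. Its log2 values were 4.63, 5.56 and 5.35 in MHC-II-positive melanophages, compared with 6.47, 6.64 and 6.32 in MHC-II-negative melanophages. In macrophages they were 5.35, 5.85 and 5.36 in MHC-II-positive cells, against 6.23, 7.39 and 7.18 in MHC-II-negative cells. All MHC-II-positive arrays were below all MHC-II-negative ones, and no other receptor of the 10 but Cd36 was lower without overlap in both cell kinds, as 0.762% of all genes were. Its averaged difference was -1.36 ± 0.22 SE (95% interval -1.84 to -0.87), which is 2.56-fold lower in MHC-II-positive cells (limma adjusted p = 0.0192). This call was lost without replicate 1 of the MHC-II-negative melanophages (adjusted p = 0.0545), replicate 2 of the same group (0.0524), replicate 1 of the MHC-II-positive macrophages (0.0511) or replicate 3 of the MHC-II-negative macrophages (0.0545). With both macrophage arrays that stood far from their mates left out, it was -1.49 (adjusted p = 0.0099). Within a cell kind Colec12 missed the threshold, at -1.30 ± 0.31 SE in melanophages (adjusted p = 0.247) and -1.41 ± 0.31 SE in macrophages (adjusted p = 0.122, and 0.0237 without replicate 1 of the MHC-II-negative macrophages). Between melanophages and macrophages its averaged difference was -0.40 ± 0.22 SE (95% interval -0.89 to 0.08, adjusted p = 0.73). Fibroblast and endothelial markers could mark other cells known to express Colec12. For the MHC-II classes 0 of 6 fibroblast markers and 0 of 7 endothelial markers were called, against 0.762% of all genes. At an unadjusted p under 0.05 limma found 0 fibroblast markers and 1 endothelial marker, against 9.23% of all genes. Pecam1, Cdh5 and Kdr, which define blood vessel cells, were below the floor in every group, as were Pdgfra and Lum of fibroblasts. The fibroblast markers Col1a1, Col1a2 and Dcn were above the floor in every group, and Col3a1 in both macrophage groups. Between the MHC-II classes of macrophages the 6 fibroblast differences ran from -0.95 to 0.02. Of these, 2 were above 0 and 0 were called by limma, against 0.341% of all genes. The log2 of the summed fibroblast markers was 6.34 to 6.43 in MHC-II-positive melanophages, against 6.10 to 6.80 in MHC-II-negative melanophages, and 6.14 to 6.59 in MHC-II-positive macrophages, against 6.28 to 7.50 in MHC-II-negative macrophages. Endothelial markers, of which Pdpn alone was above the floor, summed to 6.97 to 7.42 in MHC-II-positive melanophages, against 6.33 to 7.08 in MHC-II-negative melanophages, and 7.04 to 8.43 in MHC-II-positive macrophages, against 6.54 to 7.13 in MHC-II-negative macrophages. All 6 mast cell markers had a difference below 0 between the MHC-II classes, as Colec12 had. In limma 0 of them were called. At an unadjusted p under 0.05 there were 2 (Cpa3 at -1.17 ± 0.52 SE and Fcer1a at -0.26 ± 0.10 SE), against 9.23% of all genes. Kit, Fcer1a and Cma1 were below the floor in every group, while Cpa3, Mcpt4 and Tpsb2 were above it in every group. The log2 sum of all 6 was 6.2 to 7.76 in MHC-II-positive melanophages, against 6.25 to 8.50 in MHC-II-negative melanophages, which overlap. In macrophages it was 6.11 to 6.81 in MHC-II-positive cells, against 7.34 to 7.85 in MHC-II-negative cells, which do not. The part of any of these cells in the Colec12 difference was not tested.

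Msr1 and Marco, the 2 classical macrophage receptors of class A, gave no called difference. Msr1 takes up acetylated and oxidised LDL, and its log2 values were 9.34, 9.25 and 9.21 in MHC-II-positive melanophages, 9.13, 9.06 and 8.95 in MHC-II-negative melanophages, 9.09, 9.17 and 9.18 in MHC-II-positive macrophages and 8.68, 9.15 and 9.26 in MHC-II-negative macrophages. Marco binds bacteria and inhaled particles, and its group means were 3.72 ± 0.10 in MHC-II-positive melanophages, 3.51 ± 0.06 in MHC-II-negative melanophages, 3.61 ± 0.04 in MHC-II-positive macrophages and 3.5 ± 0.22 in MHC-II-negative macrophages. For both genes, MHC-II-positive melanophages ranked first and did not overlap either the MHC-II-negative melanophages or the MHC-II-positive macrophages. Groups that do not overlap between the cell kinds of the MHC-II-positive class, in either direction, were seen for 12.4% of all genes, and between the MHC-II classes of melanophages for 12.2%. The averaged MHC-II difference was 0.17 ± 0.09 SE for Msr1 (95% interval -0.04 to 0.37, adjusted p = 0.64) and 0.16 ± 0.07 SE for Marco (-0.01 to 0.32, adjusted p = 0.561). Melanophages minus macrophages was 0.07 ± 0.09 SE for Msr1 and 0.06 ± 0.07 SE for Marco, with 95% intervals of -0.14 to 0.27 and -0.10 to 0.23.

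Class B is represented by Cd36, which binds long-chain fatty acids, oxidised LDL, thrombospondin and apoptotic cells, and by Scarb1, the receptor for high-density lipoprotein. Cd36 had log2 values of 10.78, 10.81 and 10.64 in MHC-II-positive melanophages, compared with 10.94, 10.97 and 10.91 in MHC-II-negative melanophages. In macrophages it had 10.27, 10.41 and 10.49 in MHC-II-positive cells, against 10.69, 10.70 and 10.78 in MHC-II-negative cells. Melanophages lay above macrophages of the same MHC-II class and MHC-II-positive cells below MHC-II-negative cells of the same kind, without overlap in any of these 4 pairs. Melanophages above macrophages in both classes were seen for 0.707% of all genes and below for 0.456%, 0.251% had no overlap in any of the 4 pairs, and 0.0451% (9 genes) had the exact pattern of Cd36. The sizes were small: melanophages were 1.22-fold higher than macrophages (0.29 ± 0.05 SE, 95% interval 0.17 to 0.41, limma adjusted p = 0.119), and the MHC-II difference was -0.26 ± 0.05 SE (-0.38 to -0.14, adjusted p = 0.0643). Neither difference passed the threshold over all genes. When the table was quantile normalized again both passed, at 0.30 (adjusted p = 0.0456) and -0.30 (adjusted p = 0.0146), and with array weights the MHC-II difference passed too (-0.27, adjusted p = 0.0417). The residual SD of Cd36 within groups was 0.0765, and 9.0% of all genes had a smaller one.

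Scarb1 averaged 4.39 ± 0.17 in MHC-II-positive melanophages, 4.15 ± 0.18 in MHC-II-negative melanophages, 4.40 ± 0.14 in MHC-II-positive macrophages and 4.25 ± 0.11 in MHC-II-negative macrophages. Its groups overlapped in all 4 pairs. The averaged MHC-II difference was 0.19 ± 0.09 SE (adjusted p = 0.53), and melanophages minus macrophages was -0.06 ± 0.09 SE (95% interval -0.25 to 0.13, adjusted p = 0.935).

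Mertk and Axl are receptor tyrosine kinases that bind apoptotic cells through Gas6, and Mertk also through protein S. Mertk is used as a marker of mature tissue macrophages. Its log2 values were 3.97, 4.26 and 4.46 in MHC-II-positive melanophages, 4.58, 4.41 and 4.52 in MHC-II-negative melanophages, 3.66, 4.83 and 4.32 in MHC-II-positive macrophages and 3.96, 4.61 and 4.93 in MHC-II-negative macrophages. The groups overlapped in all 4 pairs, and the residual SD within groups was 0.406, above that of 91.1% of all genes. The averaged differences were -0.25 ± 0.21 SE for the MHC-II classes (95% interval -0.71 to 0.21, adjusted p = 0.765) and -0.02 ± 0.21 SE for melanophages minus macrophages (-0.48 to 0.44, adjusted p = 0.992).

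Axl was highest in MHC-II-positive macrophages. Its log2 values were 2.97, 3.22 and 3.56 in MHC-II-positive melanophages and 2.95, 3.27 and 3.01 in MHC-II-negative melanophages, where 2 and 1 of 3 arrays were above the floor. They were 4.32, 3.73 and 4.24 in MHC-II-positive macrophages and 3.41, 3.36 and 3.19 in MHC-II-negative macrophages. MHC-II-positive macrophages overlapped neither the MHC-II-negative macrophages nor the MHC-II-positive melanophages, and the other neighbours in the order of levels overlapped. Of all genes, 12% had no overlap between the MHC-II classes of macrophages and 12.4% none between the cell kinds of the MHC-II-positive class, in either direction. Within the MHC-II-positive class, melanophages minus macrophages was -0.84 ± 0.18 SE (1.80-fold lower, adjusted p = 0.276), and within macrophages the MHC-II difference was 0.78 ± 0.18 SE (1.71-fold, adjusted p = 0.149). Within the MHC-II-negative class, melanophages minus macrophages was -0.24 ± 0.18 SE (adjusted p = 0.982), and within melanophages the MHC-II difference was 0.18 ± 0.18 SE (adjusted p = 0.987). The test of the difference between them, the interaction, gave -0.60 ± 0.26 SE (unadjusted p = 0.0395 and adjusted p = 1.0 in limma), and no gene was called for it: the lowest adjusted p over all genes was 0.965, while 4.11% had an unadjusted p under 0.05. The averaged differences were -0.54 ± 0.13 SE for melanophages minus macrophages (1.46-fold lower, 95% interval -0.83 to -0.26, adjusted p = 0.231) and 0.48 ± 0.13 SE for the MHC-II classes (0.19 to 0.76, adjusted p = 0.184). Axl thus passed the threshold in none of the 7 comparisons. Of the dendritic cell markers whose sums are given above, Cd207 (-1.16 ± 0.15 SE, adjusted p = 0.0262) and Itgax (-0.80 ± 0.11 SE, adjusted p = 0.0404) were called lower in melanophages than in macrophages. The other 6 of the 8 were not called, 3 of the 8 differences were above 0, the highest at 0.18, and the median was -0.04. Of all genes 0.0652% were called lower in this averaged comparison. Within the MHC-II-positive class 2 of the 8 were called lower, against 0.015% of all genes, with differences from -2.00 to 0.40. Within the MHC-II-negative class 0 of the 8 were called, with differences from -0.32 to 0.07. The part of such cells in the Axl values was not tested.

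Ligands of this pair were measured as well. Gas6 averaged 7.59 ± 0.02 in MHC-II-positive melanophages, 8.04 ± 0.29 in MHC-II-negative melanophages, 7.87 ± 0.24 in MHC-II-positive macrophages and 7.91 ± 0.38 in MHC-II-negative macrophages. Pros1, the gene of protein S, averaged 7.60 ± 0.21 in MHC-II-positive melanophages, against 8.17 ± 0.12 in MHC-II-negative melanophages, and 7.58 ± 0.33 in MHC-II-positive macrophages, against 8.12 ± 0.35 in MHC-II-negative macrophages. Its MHC-II difference was -0.56 ± 0.14 SE (adjusted p = 0.15) and that of Gas6 was -0.25 ± 0.14 SE (adjusted p = 0.652). Tyro3, the other kinase of this family, had group means of 3.04 ± 0.02 and 3.04 ± 0.09 in MHC-II-positive and MHC-II-negative melanophages and of 3.11 ± 0.07 and 3.13 ± 0.09 in MHC-II-positive and MHC-II-negative macrophages, all near the floor.

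Lrp1 is a large receptor of the LDL receptor family that takes up many ligands and, with calreticulin, apoptotic cells. Its log2 values were 4.97, 5.10 and 5.66 in MHC-II-positive melanophages, 5.57, 5.07 and 5.47 in MHC-II-negative melanophages, 6.14, 6.43 and 4.83 in MHC-II-positive macrophages and 4.87, 5.89 and 5.57 in MHC-II-negative macrophages. Lrp1 varied most among the 10 receptors within groups (residual SD 0.549, above that of 96.9% of all genes), and replicate 3 of the MHC-II-positive macrophages lay 0.97 below its group mean. The averaged differences were 0.12 ± 0.28 SE for the MHC-II classes (95% interval -0.51 to 0.74, adjusted p = 0.93) and -0.31 ± 0.28 SE for melanophages minus macrophages (-0.93 to 0.31, adjusted p = 0.857). With both far macrophage arrays left out, melanophages minus macrophages was -0.70 (adjusted p = 0.102).

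Stab2 (stabilin 2), which clears hyaluronan and binds phosphatidylserine, is known mainly from sinusoidal endothelium of liver, spleen and lymph nodes. Its values were above the floor on 0 of 12 arrays, and its group means were 2.97 ± 0.04 and 2.98 ± 0.11 in MHC-II-positive and MHC-II-negative melanophages and 3.01 ± 0.05 and 3.00 ± 0.08 in MHC-II-positive and MHC-II-negative macrophages. No order of levels is given for values below the floor.

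Related genes of the same pathways were examined in lists. Of 16 other scavenger receptors, MHC-II-positive cells had 2 called higher and 0 called lower, against 0.632% and 0.13% of all genes. The called receptors were Clec7a, described above, and Cxcl16, a membrane-bound chemokine that also takes up oxidised LDL and phosphatidylserine. Cxcl16 averaged 8.32 ± 0.14 in MHC-II-positive melanophages, against 7.93 ± 0.12 in MHC-II-negative melanophages, and 8.61 ± 0.25 in MHC-II-positive macrophages, against 7.87 ± 0.19 in MHC-II-negative macrophages (0.56 ± 0.10 SE, 1.48-fold, adjusted p = 0.0326). The Cxcl16 call held without replicate 1 of either MHC-II-positive group or replicate 3 of the MHC-II-negative macrophages, and was lost without any 1 of the other 9 arrays (adjusted p 0.0568 to 0.0958). Between melanophages and macrophages 0 of the 16 were called by limma, against 0.12% of all genes, with 2 at an unadjusted p under 0.05, against 7.52%. The lowest adjusted p there belonged to Cd68, a lysosomal glycoprotein of macrophages, at 0.28 ± 0.05 SE (adjusted p = 0.119), close in size to the difference of Cd36.

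Of 15 measured bridging ligands and opsonins, 1 was called higher in MHC-II-positive cells, against 0.632% of all genes. The called gene was Thbs1, thrombospondin 1, a ligand of Cd36 that binds apoptotic cells. Thbs1 had 7.77, 6.94 and 8.20 in MHC-II-positive melanophages, compared with 7.03, 4.07 and 5.96 in MHC-II-negative melanophages, which overlap. In macrophages it had 9.21, 8.89 and 8.59 in MHC-II-positive cells, against 5.89, 6.58 and 5.77 in MHC-II-negative cells, with no overlap. The averaged difference was 2.39 ± 0.43 SE (5.22-fold, adjusted p = 0.0357). The Thbs1 call held without replicate 1 or 2 of the MHC-II-negative melanophages and was lost without any 1 of the other 10 arrays (adjusted p 0.0523 to 0.0998). Between melanophages and macrophages 0 of the 15 were called, against 0.12% of all genes, with 1 at an unadjusted p under 0.05 in limma, against 7.52%. That gene was Mfge8, which links phosphatidylserine to integrins, at -0.50 ± 0.13 SE (adjusted p = 0.266).

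Of 16 other receptors for apoptotic cells, limma called 0 in both averaged comparisons, where 0.762% (MHC-II classes) and 0.12% (cell kinds) of all genes were called. At an unadjusted p under 0.05 there were 6 for the MHC-II classes (9.23% of all genes) and 4 for the cell kinds (7.52%). For the MHC-II classes 13 of the 16 differences were above 0, with a median of 0.26, against -0.02 over all genes. Cd14, a lipopolysaccharide co-receptor that also tethers apoptotic cells, came closest at 0.50 ± 0.10 SE (adjusted p = 0.0618). It passed in 4 of 21 alternatives: the filter on dim genes (adjusted p = 0.0492), limma's trend and robust options (0.0412), array weights (0.0278) and without replicate 1 of the MHC-II-negative macrophages (0.0379). Timd4 (TIM-4), a phosphatidylserine receptor of long-lived resident macrophages, had 4.96, 7.38 and 6.87 in MHC-II-positive melanophages, compared with 3.46, 3.98 and 3.57 in MHC-II-negative melanophages. In macrophages it had 5.73, 6.79 and 6.89 in MHC-II-positive cells, against 6.43, 6.44 and 7.05 in MHC-II-negative cells. MHC-II-negative melanophages were thus below every other array, yet no Timd4 difference passed the threshold: melanophages minus macrophages was -2.97 in the MHC-II-negative class (adjusted p = 0.161) and -1.52 ± 0.38 SE on average (adjusted p = 0.266). Of 19 genes of engulfment and digestion, 0 were called in either averaged comparison. At an unadjusted p under 0.05 limma found 5 for the MHC-II classes (9.23% of all genes) and 1 for the cell kinds (7.52%). The lowest adjusted p in both comparisons belonged to Elmo1, which with Dock1 activates Rac during engulfment. Its difference was 0.53 ± 0.14 SE for the MHC-II classes (0.164) and -0.44 ± 0.14 SE for the cell kinds (0.432). Of 13 genes of the LDL receptor family and its partner, 0 were called by limma and 0 had an unadjusted p under 0.05 in either averaged comparison; the lowest adjusted p was 0.711 for Lrp4 between cell kinds and 0.561 for Lrp6 between MHC-II classes.

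**Figure D4:**
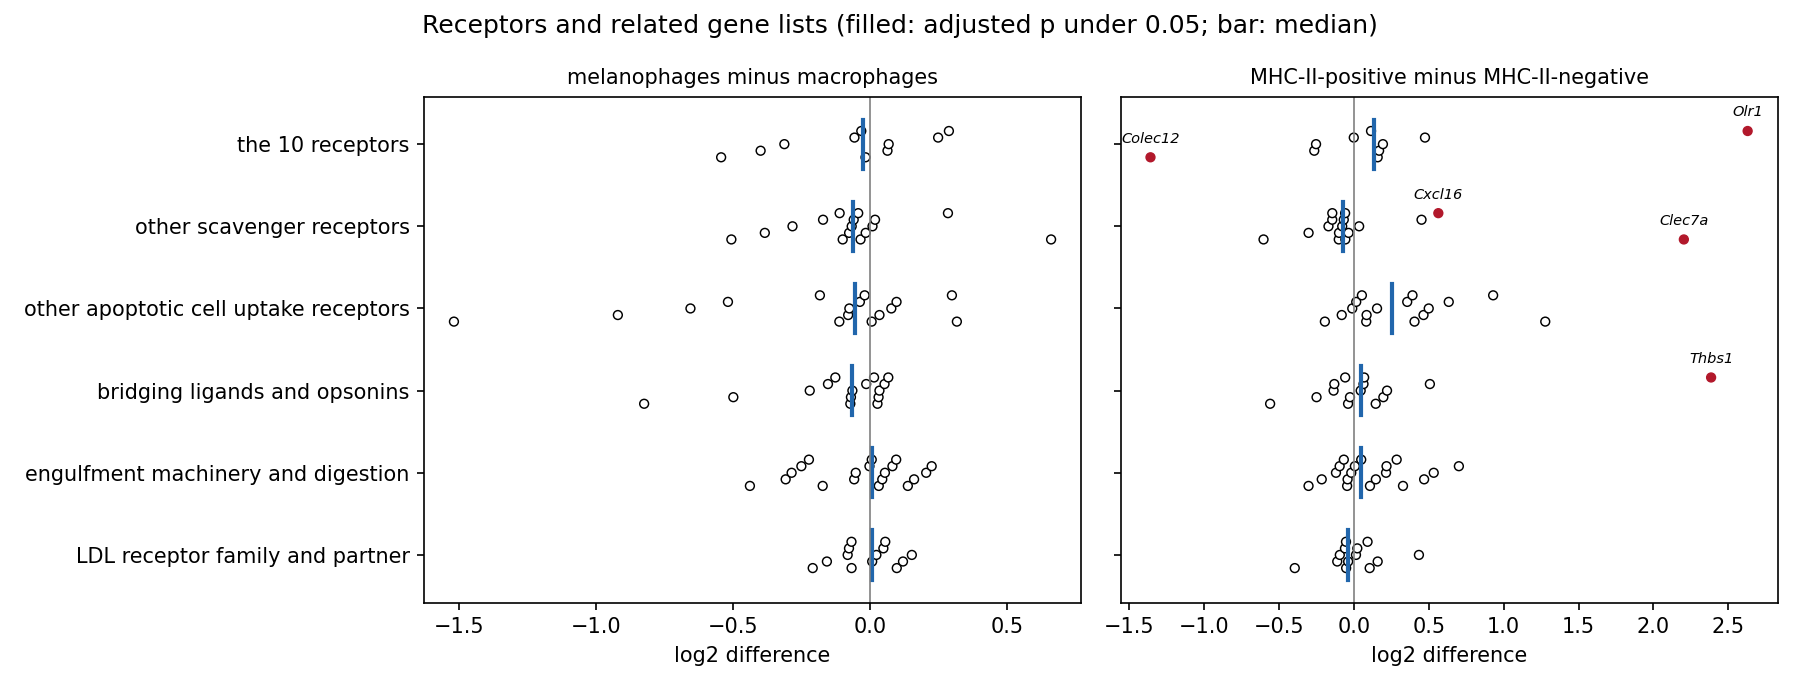
Log2 differences of single genes (points) by list, for melanophages minus macrophages (left, averaged over MHC-II class) and the MHC-II classes, positive minus negative (right, averaged over cell kind); bars are list medians, filled points have an adjusted p under 0.05, vertical spread within a list has no meaning, and the panels have different horizontal scales. On the left no point is filled; on the right Olr1, Colec12, Clec7a, Cxcl16 and Thbs1 are.

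The genes most like each receptor over the 12 arrays were found by Pearson correlation; these values describe shared patterns over the same arrays and carry no test. For Olr1 they were Tnip3 (r = 0.98), Ccl22 (0.96) and H2-Aa (0.95), the last a gene of the MHC-II gate itself. For Colec12 they were Myc (0.93), Ifi207 (0.91) and Gja1 (0.90). Cd36 was most like Hpgds (0.95), Cntnap5c (0.94) and Serpinb6a (0.93), and Axl most like Pdcd1lg2 (0.92), Ccnd2 (0.92) and Prep (0.91). Lrp1 was most like Eif3b (0.96), Morc2a (0.96) and Notch2 (0.95). The highest r was 0.91 for Msr1 (with Cnot6), 0.89 for Marco (with Irf7), 0.90 for Scarb1 (with Lca5) and 0.88 for Mertk (with Mylip), and Stab2, below the floor, was left out.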

How the data were processed

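Per the submitters' processing notes, the authors made the deposited log2 values with RMA, a robust average over the probes of a set, using oligo in R. The sources used here give no versions or settings. RNA was amplified and labelled with biotin before hybridisation, per the labels' protocols. The deposited table has 35556 probe sets, of which 21789 carry 1 gene symbol in the platform annotation, 1621 several and 12146 none. Where a gene had several, the brightest on average over 12 arrays was kept (19938 genes). The log2 values were fitted with limma 3.58.1 (lmFit, eBayes) in R 4.3.3; 1 model held the 4 group means, with 8 residual degrees of freedom and 2.44 from the prior. The 7 comparisons (cell kinds and MHC-II classes, averaged and within each other, and the interaction) were two-sided, with Benjamini-Hochberg adjustment over all genes. Groups follow the labelled cell type. The labels name no separate animals or cultures for the arrays of a group. Therefore p-values reflect just the spread among these samples, possibly a technical one, and precision is limited by the number of arrays.

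Alternatives were a filter on dim genes, quantile normalization again, centring on array medians, probe sets averaged per gene or all tested singly, limma's trend and robust options, array weights, a replicate block, each array or both far macrophage arrays left out, and only the compared groups in the fit. The receptors, gene lists and tests were chosen with earlier results of these data known. Named genes are all 10 receptors, called members of the related lists or else the member with the lowest adjusted p, and the 3 genes with the highest correlation with each receptor above the floor. Clec7a as neighbour, Klrd1, Clec12a, Klrk1, Gas6, Pros1, Tyro3, Timd4 by array and the marker genes were named for their role or position, some after their values were seen. Some listed genes were not analysed here. On simulated data of 19938 genes the fit called 83% of log2 changes of 1 and 98% of changes of 2 for melanophages minus macrophages (11 false calls), and 78% and 95% for the MHC-II classes (13 false calls). The changes were placed only in genes with a mean above the median of all genes. Noise was normal, with the SD of each gene, and independent between arrays and genes. The simulation also held many more changed genes than the 24 called here for melanophages minus macrophages. More changed genes give a looser Benjamini-Hochberg cutoff on the unadjusted p, so the rates can overstate recovery in that comparison. These rates thus do not describe dimmer genes or effects shared by genes of an array, and they do not make an uncalled difference absent.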

Additional observations from a re-analysis of the deposited data

How the results depend on the processing

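Of 40 receptor differences examined, 27 kept their sign and their side of the threshold in every alternative. These were the averaged differences of every receptor and the remaining comparisons of Olr1, Colec12, Cd36 and Axl. For the other receptors, the differences within a class or cell kind and the interaction are not in this count. For the averaged comparisons there were 21 alternatives, 12 of which left out 1 array each. The averaged Olr1 difference between MHC-II classes passed in all 21 (2.44 to 2.81, adjusted p 2.54e-05 to 0.00433), and that of Colec12 in 17 (-1.53 to -1.22, adjusted p 0.00385 to 0.0545). Below the floor a measured difference may understate the true one. The causes of the changes below were not tested, except that fewer arrays enter where arrays are left out.

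Receptors called between melanophages and macrophages (averaged) came to 1 with quantile normalization again, in place of 0 (36 of all genes, in place of 24). For the MHC-II classes within macrophages, in place of 1, they came to 3 with quantile normalization again, 2 with array weights and 2 with the replicate block, where 90, 101 and 69 of all genes were called in place of 68, and to 1 to 2 with 1 array left out. Averaged over cell kind, in place of 2, they were 3 with quantile normalization again and 3 with array weights, where 173 and 215 of all genes were called in place of 152, and 1 to 2 with 1 array left out, and within melanophages 0 to 1, and 0 with only both groups compared in the fit.

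Genes called between melanophages and macrophages (24 averaged) came to 38 with the filter on dim genes, 15 with arrays centred on medians, 1 with every probe set, 45 with array weights, 117 without both far macrophage arrays and 1 to 30 with 1 array left out. In the MHC-II-negative class (1 gene) they came to 2 with every probe set, 11 with trend and robust options, 6 with the replicate block, 12 without both far arrays, 0 with only both groups in the fit and 0 to 8 with 1 array left out. In the MHC-II-positive class (3 genes) they came to 5 with the dim filter, 0 with quantile normalization again, 5 with every probe set, 11 with trend and robust options, 6 with array weights, 34 without both far arrays, 0 with only both groups in the fit and 0 to 20 with 1 array left out. For the MHC-II classes the ranges with 1 array left out were 96 to 158 averaged (152), 19 to 46 in melanophages (42), 47 to 92 in macrophages (68, and 27 with only both groups in the fit) and 0 to 3 for the interaction (0). The averaged MHC-II calls split into 126 higher and 26 lower, 129 and 44 with quantile normalization again, 161 and 54 with array weights, and 116 and 40 without both far arrays.

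Signs turned for differences smaller in size than their SE. Mertk between cell kinds was 0.0241 with quantile normalization again and -0.17 to 0.12 with 1 array left out. Msr1 between cell kinds was -0.0139 without both far arrays and -0.0215 to 0.125 with 1 array left out. Stab2 between MHC-II classes was 0.0283 with quantile normalization again, 0.0319 centred, 0.0184 with array weights, 0.0135 without both far arrays and -0.0297 to 0.0206 with 1 array left out, and had no value under the dim filter. With 1 array left out, Lrp1 between MHC-II classes was -0.0425 to 0.36, Olr1 between cell kinds in the MHC-II-negative class -0.0888 to 0.66, the Olr1 interaction -0.44 to 0.31 and the Colec12 interaction -0.12 to 0.46.

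Each run of consecutive library codes held an array of every group, and the labels do not say what a run stands for. Of 18 same-run pairs, 5 had a correlation of deviations over 0.1 (median -0.03, range -0.25 to 0.27). Of 36 pairs from different runs, 11 did (median 0.06, range -0.29 to 0.27). Such correlations over all genes cannot exclude a pairing of the arrays, which could concern few genes. With the replicate block Colec12 also passed within macrophages (-1.41, adjusted p = 0.0359), the averaged MHC-II calls came to 145 and no other call on a receptor changed.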
